A study of Mus musculus with 27 samples.

Results

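The stretch of mouse chromosome 3 described here runs from the first array probe to position 90000000 of build mm8 and holds Pik3ca, Sox2, Fgf2, Foxo1 and Ccna2. Its members were the 6570 positions measured there by a DNA probe, out of 233212 on the whole array, and 6564 of them had usable values on all arrays. The stretch and its end were chosen because the DNA ratio was low along most of it in 1 tumour, the resistant tumour at 160 mg/kg/day. All values of that tumour on chromosome 3 are therefore a description, with no test.

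The tumours were medulloblastomas from Ptch+/-p53-/- mice, grafted under the skin of nude mice, so both the control and the treated tumours carried those alleles. Genomic DNA of 6 tumours was hybridised to Agilent 244K arrays, 1 tumour per array, labelled with Cy5 (red) against wildtype mouse liver DNA labelled with Cy3 (green). There were 3 vehicle tumours (26 days, drug-sensitive) and 3 resistant ones. The resistant tumours had received 40, 80 or 160 mg/kg/day of LDE225, 1 tumour per dose, with 2 doses a day for 26 days. LDE225 is an antagonist of Smo, a transducer of the Hedgehog signal. The share of host cells in the grafts was not measured, and labels do not say whether the grafts came from 1 parent tumour or several. The title and source name of the 160 mg/kg/day tumour contain the word vehicle, while its status, treatment and dose labels say resistant, LDE225 and 160. It was grouped by the last of these, and the name "160 tumour" below means the array so labelled.

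On such arrays the red over green ratio of a probe follows the number of DNA copies in the tumour relative to liver. A log2 ratio of 0 stands for equal copy number, and loss of 1 of 2 copies in every cell would give -1 on an ideal array. Pik3ca encodes the catalytic subunit p110alpha of phosphoinositide 3-kinase (PI3K), which makes the membrane lipid PIP3 and so recruits the kinase Akt. Foxo1 is a transcription factor that Akt keeps out of the nucleus. The other named genes act in growth too: Fgf2 is a growth factor, Sox2 a transcription factor of neural stem cells, and Ccna2 the cyclin of S phase and mitosis.

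MicroRNA genes are among the lost elements, and a few of their mature sequences are shown to identify what was lost and what was retained. They were placed by gene order in RefSeq (GRCm38.p6), since no coordinates were carried between builds. In all, 15 microRNA genes with 23 mature products lay between genes of the lost part defined below, and 8 genes with 13 products lay between its border and the end of the stretch. Capitals mark the seed, bases 2 to 8, which pairs with target RNAs. The first 2 below come from 1 gene cluster inside Smc4 and share their seed, and the third lies between Gm1527 and Mynn. All 3 were on the lost side:
miR-15b-5p: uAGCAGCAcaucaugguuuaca
miR-16-5p: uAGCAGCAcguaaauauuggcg
miR-551b-3p: gCGACCCAuacuugguuucag
The RefSeq table lists miR-16-5p for 2 genes, so the loss concerns only 1 of its sources. On the retained side lay miR-9-5p, abundant in neural progenitors, between Mef2d and Rhbg, and miR-92b-3p between Thbs3 and Muc1:
miR-9-5p: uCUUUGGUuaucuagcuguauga
miR-92b-3p: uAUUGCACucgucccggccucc
The 8 probes of Smc4, a condensin subunit and the host of the first pair, averaged a log2 ratio of -0.65 in the 160 tumour. In the vehicle tumours the same probes averaged 0.08, 0.08 and 0.10, and at 40 and 80 mg/kg/day 0.07 each.

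Precision on these arrays is limited by their number and by scatter between probes. Over all chromosomes, neighbouring probes scattered with an SD of 0.139 to 0.205 in the vehicle tumours, 0.327 and 0.293 at 40 and 80 mg/kg/day, and 0.470 at 160 mg/kg/day. At least 99.9% of the probes in the stretch were well above background in both dyes on each array, and none was saturated. Much of the scatter was shared between arrays. Over the 7584 probes of chromosome 3 beyond the border, the correlation across probes was 0.94 between the 160 and 40 tumours and 0.91 between the 160 and 80 tumours, and 0.37, 0.79 and 0.67 between the 160 tumour and vehicle tumours 1, 2 and 3. These probes are not independent replicates and the figures only describe the arrays. Subtracting, probe by probe, the mean of the 40 and 80 tumours reduced the scatter of neighbours on chromosome 3 from 0.456 to 0.203. That difference, called the matched difference below, was added after seeing the data and is given beside the plain ratio.

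The 160 tumour had 1 unbroken low part on its own ratio, reaching from the first probe on the chromosome to chr3:79629324. A single step fitted to its 13005 probes lay between a probe ending at 79629324 and the next, starting at 79654821, a gap of 25.5 kb. The only other step with a nearly equal fit began at 79538483, and on the matched difference no other step fitted nearly as well. The lost part, chr3:3007185-79629324, thus covered 76.6 Mb with 5421 probes.

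Over these 5421 probes the mean log2 ratio was -0.08, -0.06 and -0.07 in the 3 vehicle tumours, -0.03 at 40 mg/kg/day and -0.07 at 80 mg/kg/day. At 160 mg/kg/day it was -0.71. The other 5 tumours lay together, with a vehicle mean of -0.0724 ± 0.00796 (SD, n = 3), and the 160 tumour stood alone far below them. The matched difference of the 160 tumour was -0.66, with an SD of 0.233 over probes. Of the lost probes, 93.2% had a ratio below 0 in the 160 tumour and 99.3% had a matched difference below 0. The share below 0 was 56.2% to 70.3% in the other 5. Loss in only some of the tumour cells, host cells in the graft and compression of the ratio on the array cannot be told apart from these values.

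Beyond the border the 160 tumour returned to the level of the others. The 1143 probes from the border to 90000000 averaged 0.03 at 160 mg/kg/day, against 0.02, 0.03 and 0.03 in vehicle and -0.01 and -0.00 at 40 and 80 mg/kg/day. At the end of the stretch, the last 10 probes inside averaged 0.05 in the 160 tumour and the next 10 outside 0.25, so that end, unlike the border, marks no fall. A segmentation of each array, in which a call needed 5 probes or more and a mean beyond 0.3 in either direction, called 1 segment on chromosome 3 in the 160 tumour and 0 in the other 5 tumours.

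**Figure D1:**
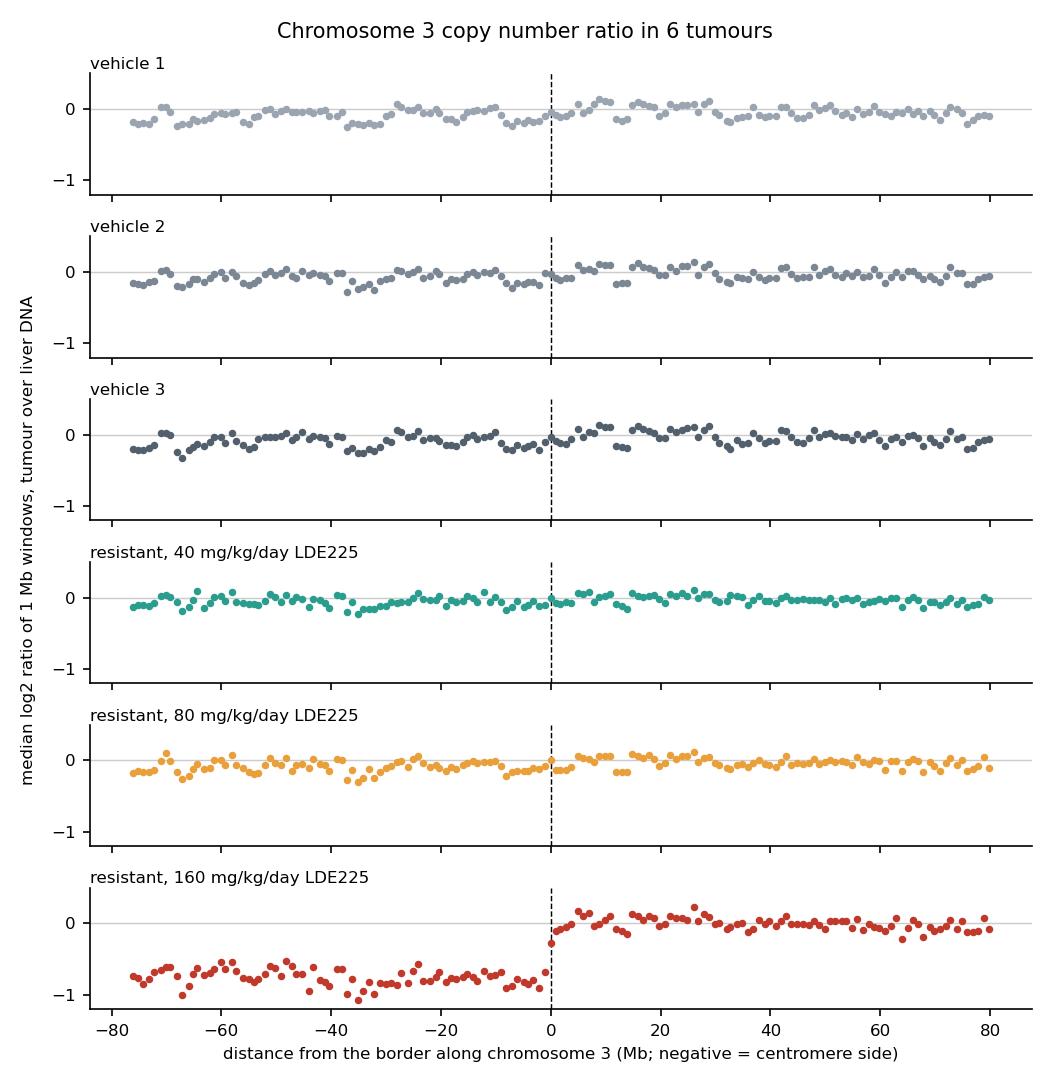
Median log2 ratio of tumour over liver DNA in 1 Mb windows (y axis) against distance from the border in Mb (x axis), 1 panel per tumour. In the 160 mg/kg/day tumour the 76 windows lying more than 1 Mb inside the border have medians from -1.08 to -0.53 and the 80 windows more than 1 Mb outside it from -0.22 to 0.23, while the other 5 panels show no step.

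In windows of 1 Mb with at least 5 probes, 76 of 76 windows of the lost part had a median at or below -0.3 in the 160 tumour, where 9.02% of the 2551 windows of the genome did; the rule used this contrast, and nothing is read from that count. The count was 1 in vehicle tumour 3 and 0 in each of the other 4 tumours. Genome-wide the share was 2.31%, 2.16% and 2.86% in vehicle and 8.7% and 11.5% at 40 and 80 mg/kg/day. Among the 10 windows between the border and the end of the stretch, 0 reached -0.3 in any tumour.

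The low ratio came from the red channel. The median green signal of the stretch was alike on all arrays, from 1065 to 1129 processed intensity units. The median red signal was 1016 to 1096 on 5 arrays and 718 on the array of the 160 tumour. Relative to each array's autosomal median, the green signal of the lost part was -0.19 to -0.18 on the log2 scale on all 6 arrays. The red signal was -0.27 to -0.22 on 5 of them and -0.89 in the 160 tumour.

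**Figure D2:**
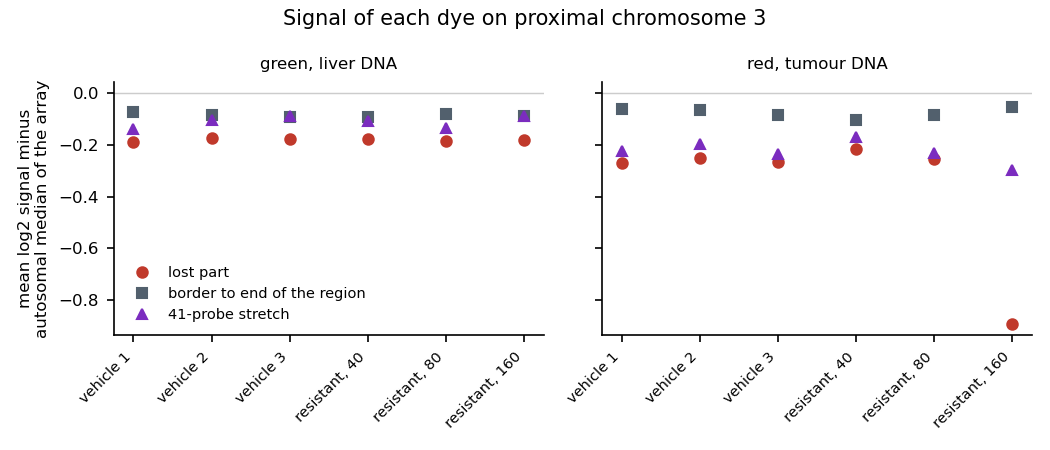
Mean log2 signal minus the array's autosomal median (y axis) for the green liver channel (left) and the red tumour channel (right) in each tumour (x axis), for the lost part, the retained part up to the end of the region and the 41-probe stretch described below. Only the red signal of the lost part in the 160 mg/kg/day tumour stands apart, at -0.89.

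In stretches of 5 Mb the ratio of the 160 tumour ran from -0.89 (45 to 50 Mb) to -0.63 (30 to 35 Mb). The vehicle mean was -0.18 in the first of these and -0.02 in the second. On the matched difference the same 2 stretches were again the extremes, at -0.73 and -0.61. Against the vehicle mean the extremes were others, -0.75 at 50 to 55 Mb and -0.58 at 20 to 25 Mb. The stretch from 30 to 35 Mb holds the interval of smaller loss described next.

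Within the lost part, 41 neighbouring probes at chr3:31595841-32199414 (604 kb) were close to the level of the other tumours. Their mean log2 ratio was -0.08, -0.08 and -0.13 in vehicle, -0.06 at 40, -0.10 at 80 and -0.21 at 160 mg/kg/day. The 41 probes just before averaged -0.57 in the 160 tumour and the 41 just after -0.90. On the matched difference the values were -0.61 before, -0.13 within (SD 0.234 over probes) and -0.75 after. The 5300 other runs of 41 probes in the lost part, which overlap one another, ranged from -0.80 to -0.52.

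The interval came from segmenting the matched difference, after the values had been seen. It had the same ends when the 160 tumour was set against the 40 tumour alone and against the 80 tumour alone. Against vehicle tumours 2 and 3 singly it began at 31681098, with 38 probes and the same end. Against vehicle tumour 1 it was not split off at the usual penalty factor of 3. Against the mean of the vehicle tumours it was not split off at 3, but was at 2, from 31693203 with 37 probes and the same end. On the plain ratio of the 160 tumour it was split off neither at 3 nor at 1. The red signal of its probes, on the log2 scale against the autosomal median, was -0.30 in the 160 tumour and -0.24 to -0.17 in the other 5, and the green signal -0.14 to -0.09 in all.

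**Figure D3:**
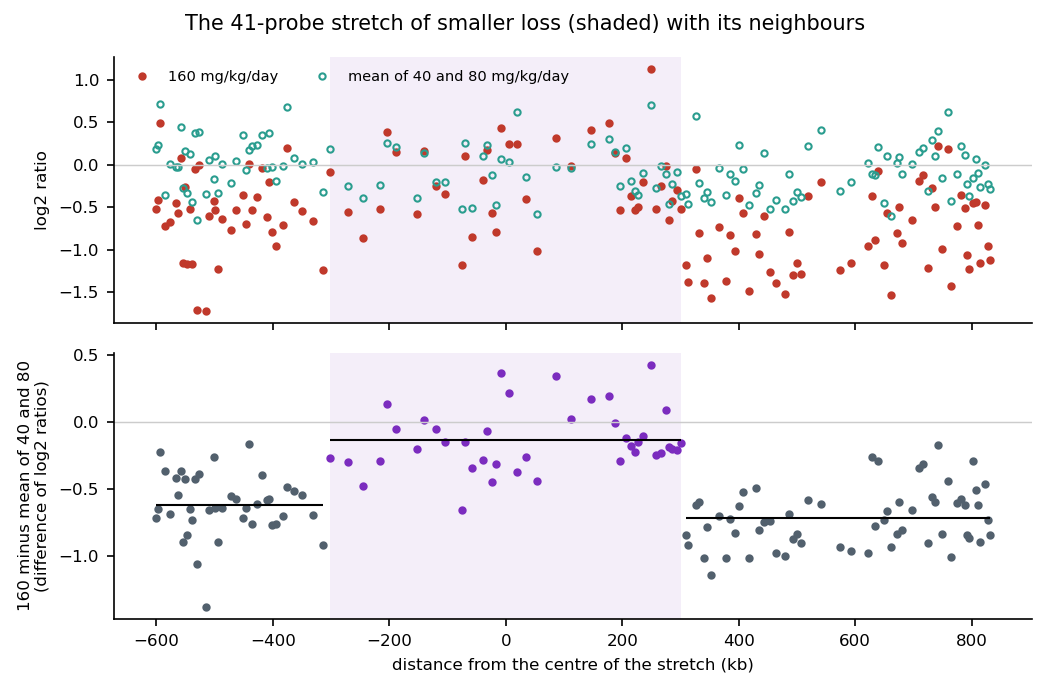
Single probes in and around the 41-probe interval (shaded), by distance from its centre in kb (x axis): log2 ratios of the 160 mg/kg/day tumour and of the mean of the 40 and 80 mg/kg/day tumours (top), and their difference (bottom, black lines are means). Inside the shading the difference averages -0.13; its probes lie above most of their neighbours on both sides.

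Of the 41 probes, 24 have no gene name in the files. The end of the interval falls inside Kcnmb2, which encodes an auxiliary subunit of a calcium-activated potassium channel. The first 14 of its 35 probes lay in the interval and averaged -0.26 in the 160 tumour, while the other 21 averaged -1.01. For the same 2 groups the averages were -0.12 and -0.14 in vehicle tumour 1, -0.13 and -0.21 in vehicle tumour 2, and -0.24 and -0.23 in vehicle tumour 3. They were -0.11 and -0.21 at 40 and -0.16 and -0.22 at 80 mg/kg/day. The 2 parts of the gene lay further apart in the 160 tumour than in any other. The cut between them was placed from the values of that tumour, so nothing is read from this. The interval ended 430 kb before the first Pik3ca probe. Pik3ca itself therefore lay in the lost part.

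Pik3ca had 4 probes, at chr3:32629350-32647680. Their mean log2 ratio was 0.04, 0.10 and 0.10 in vehicle, 0.24 at 40, 0.07 at 80 and -0.38 at 160 mg/kg/day. The 160 tumour was the only one below 0, and its matched difference was -0.54 (SD 0.27 over the 4 probes). The single probes of the 160 tumour read -0.27, -0.50, 0.23 and -0.99. The third probe was above 0 also at 40 mg/kg/day, where it read 0.55, and its matched difference was -0.17, against -0.56, -0.60 and -0.83 for the others.

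Foxo1 had 11 probes at chr3:52365125-52435346. It averaged 0.03, 0.13 and 0.14 in vehicle, 0.14 at 40, 0.17 at 80 and -0.42 at 160 mg/kg/day. All 11 of its matched differences were negative, from -0.93 to -0.20. Fgf2, with 8 probes at chr3:37548673-37593385, averaged 0.03, -0.03 and -0.03 in vehicle, -0.19 at both 40 and 80, and -0.97 at 160 mg/kg/day. Its 8 matched differences ran from -1.32 to -0.31. For both genes the 160 tumour lay below every other tumour.

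Sox2 and Ccna2 had 1 probe each, so their values rest on single spots. The Sox2 probe read -0.04, 0.14 and 0.17 in vehicle, 0.06 at 40, 0.07 at 80 and -0.77 at 160 mg/kg/day. The Ccna2 probe read 0.10, 0.25 and -0.03 in vehicle, 0.07 at 40, 0.24 at 80 and -0.22 at 160 mg/kg/day. The Ccna2 value did not reach -0.3, and its matched difference was -0.37, beside an SD of 0.204 among the matched differences of single probes beyond the border.

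The lost part held 440 gene names, of which 247 had at least 3 probes. At 160 mg/kg/day 244 of these 247 had a mean at or below -0.3, where 12.6% of 13727 such genes of the genome did; this contrast chose the region and the count is only descriptive. The count was 1, 1 and 4 in the vehicle tumours (genome 1.53%, 1.82% and 2.04%), 5 at 40 (8.4%) and 3 at 80 mg/kg/day (9.8%). The 3 genes above -0.3 at 160 mg/kg/day were AK011787 (-0.20), D3Ertd300e (-0.18) and EG624866 (-0.11), named after their values were seen. On the matched difference all 247 lay below -0.3, from -1.12 to -0.38. The median of the 247 was -0.68 in the 160 tumour, beside 0.04 over all genes.

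Between the border and 90000000, 8 of 85 genes with at least 3 probes lay at or below -0.3 in the 160 tumour, no larger a share than the 12.6% of all genes. Among them were Npy2r, a neuropeptide Y receptor (-0.47), and Efna4, an ephrin ligand (-0.35), named after their values were seen. At 40 mg/kg/day the same 2 genes read -0.35 and -0.32 and at 80 mg/kg/day -0.36 and -0.22. On the matched difference 0 of the 85 reached -0.3, and the lowest was -0.18.

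Of 20 growth and signalling genes, 17 had probes in the stretch and 16 had at least 3. In the 160 tumour 15 of these 16, the members on the lost side, were at or below -0.3, beside 12.6% of all genes and 244 of 247 in the lost part. In each of the other 5 tumours 0 were. Their median was -0.56 in the 160 tumour and between -0.01 and 0.01 in the others. Prkci, an atypical protein kinase C, averaged -0.46 over 8 probes, and the 5 others were between 0.04 and 0.15. Mecom, a zinc-finger transcription factor, was read from the 6 probes named Evi1 in the files, which averaged -0.93 and -0.17 to -0.01 elsewhere. The 38 probes named Mds1, at chr3:30428766-30697885, averaged -0.71 in the 160 tumour and -0.04 to -0.01 elsewhere. Wwtr1, which encodes the Hippo pathway coactivator TAZ, averaged -0.84 over 17 probes and -0.12 to -0.02 elsewhere. Maml3, a Notch coactivator, averaged -0.76 over 22 probes and -0.04 to 0.08 elsewhere. The 1 gene of the 16 that did not reach -0.3 was Pdgfc, a platelet-derived growth factor at chr3:81124312-81298978 beyond the border, at -0.07 over 24 probes in the 160 tumour and -0.18 to -0.05 in the others.

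**Figure D4:**
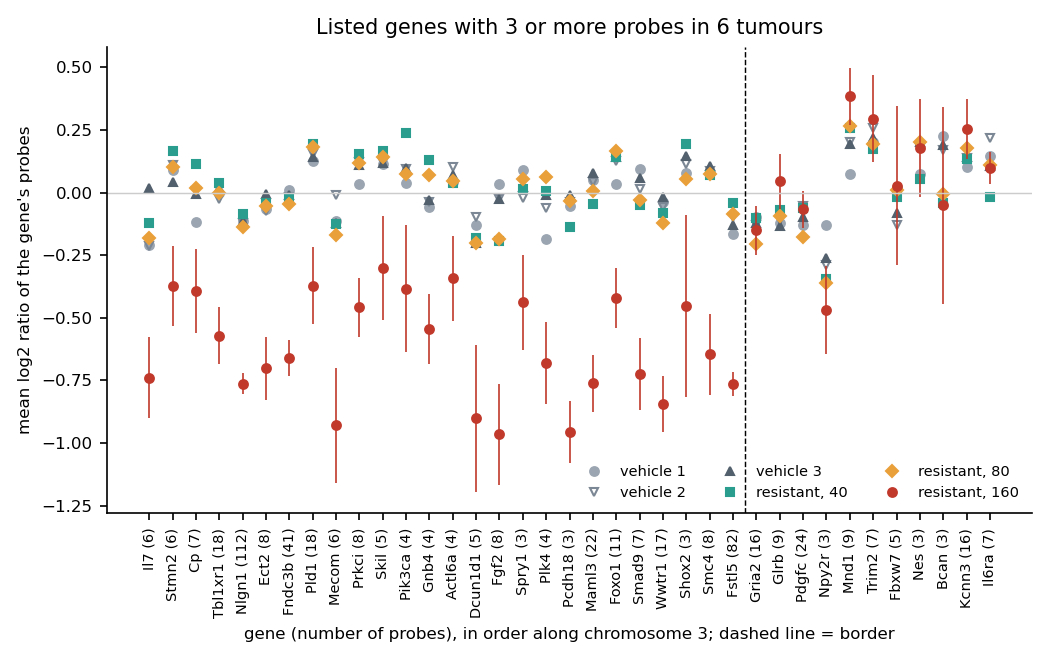
Mean log2 ratio of each listed gene with 3 or more probes (y axis) in the 6 tumours, in order along the chromosome with the number of probes (x axis); red bars are the standard error over probes in the 160 mg/kg/day tumour. Left of the border (dashed) the 160 mg/kg/day tumour is the lowest for each gene, from -0.97 for Fgf2 to -0.30 for Skil, and right of it its values run from -0.47 for Npy2r to 0.38 for Mnd1.

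Of 9 cell cycle genes 8 had probes, 5 of them at least 3, and 3 of these 5 were at or below -0.3 in the 160 tumour, beside 12.6% of all genes. These were Ect2, Plk4 and Smc4, the 3 on the lost side. Plk4, the kinase that starts centriole duplication, averaged -0.68 over 4 probes and lay between -0.19 and 0.06 in the others. Ect2, a guanine nucleotide exchange factor of cytokinesis, averaged -0.70 over 8 probes and -0.07 to -0.01 in the others. Fbxw7 and Mnd1 lie beyond the border. Fbxw7, which marks cyclin E for destruction, averaged 0.03 over 5 probes at 160 mg/kg/day, and Mnd1, a meiotic recombination gene, 0.38 over 9, with 0.08 to 0.27 in the others.

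Of 21 neural genes 17 had probes, 13 of them at least 3. In the 160 tumour 7 of these 13 were at or below -0.3, beside 12.6% of all genes. Npy2r, 1 of the 7, lies beyond the border, and the others were on the lost side. At 40 and at 80 mg/kg/day 1 of the 13 was at or below -0.3, Npy2r in both, beside 8.4% and 9.8% of all genes. The longest of them, the synaptic adhesion gene Nlgn1, averaged -0.76 over 112 probes at chr3:25627084-26511758, against -0.14 to -0.08 in the other tumours. Fstl5 averaged -0.76 over 82 probes, against -0.17 to -0.04. The glutamate receptor gene Gria2 lies beyond the border and averaged -0.15 over 16 probes, within its range of -0.21 to -0.10 in the others. Nes, the neural progenitor filament nestin, was also retained, at 0.18 over 3 probes, with 0.06 to 0.20 in the others. Of 11 immune genes 10 had probes but only 2 had at least 3. Il7, a lymphocyte growth factor, averaged -0.74 over 6 probes at 160 mg/kg/day and -0.21 to 0.02 elsewhere, and the interleukin 6 receptor gene Il6ra, beyond the border, averaged 0.10 over 7.

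Genes with at least 5 probes were also ranked by their mean in the 160 tumour. The lowest were AK077393 (-1.39, 5 probes), AK012035 (-1.16, 11) and Car1, a carbonic anhydrase (-1.03, 6). These 3 were below 0 in all 6 tumours, with vehicle tumours between -0.32 and -0.08. The highest were Smg5, an RNA decay factor (0.40, 5 probes), Mnd1 (0.38) and D930015E06Rik (0.33, 19), all beyond the border. Their matched differences were 0.13, 0.12 and 0.14.

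The genes with probes nearest to the border were AK122512 on the lost side and AK016374 on the retained side. The last AK122512 probe ended at 79575242, and further probes of the lost part lay between it and the border. The 2 AK122512 probes averaged -0.42 in the 160 tumour and -0.03 to 0.12 in the others. The single probe of AK141700, also on the lost side, read 0.45 in the 160 tumour, but 0.63 and 0.43 at 40 and 80 mg/kg/day. AK142735, the third name on that side, read -0.48 against 0.09 to 0.35. On the retained side AK016374 read 0.57 on 1 probe, with 0.19 to 0.42 in vehicle, 0.64 at 40 and 0.27 at 80 mg/kg/day. Ppid, a cyclophilin, averaged 0.70 over 2 probes, with 0.42 and 0.46 at 40 and 80 mg/kg/day, and Etfdh, an electron transfer enzyme of mitochondria, 0.07 over 4. The last 10 probes inside had a mean matched difference of -0.61 (SD 0.236) and the first 10 outside 0.06 (SD 0.163).

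**Figure D5:**
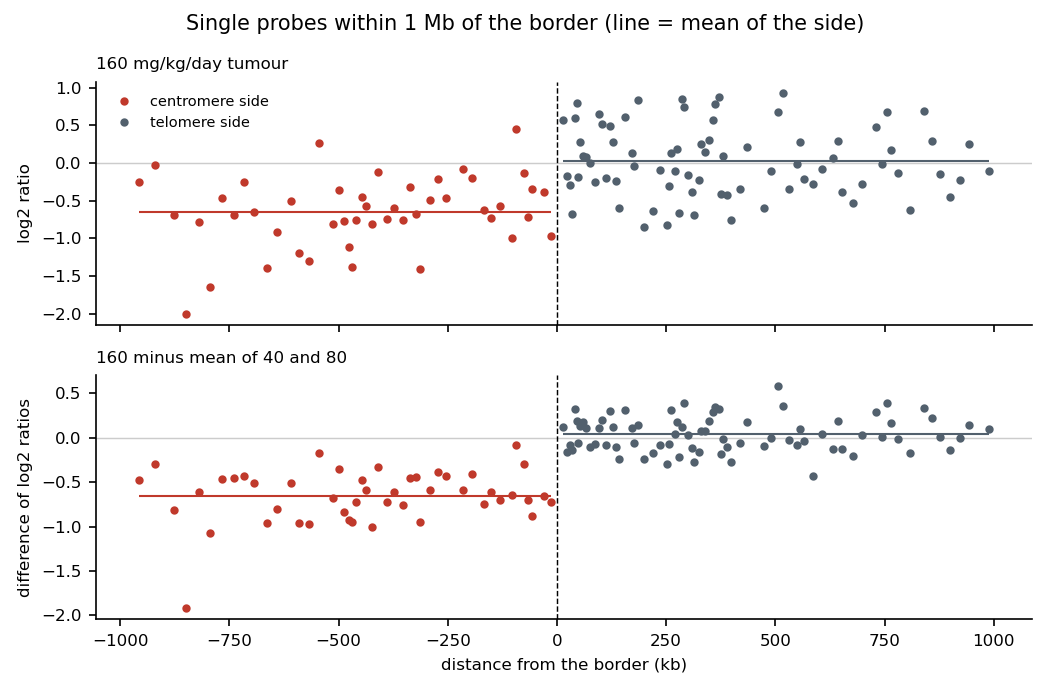
Single probes within 1 Mb of the border (x axis, distance in kb) in the 160 mg/kg/day tumour, as log2 ratio (top) and as the matched difference (bottom), with the mean of each side as a line. On the plain ratio both sides overlap widely, and on the matched difference the last 10 probes inside average -0.61 and the first 10 outside 0.06.

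The PI3K pathway genes of all chromosomes were listed too, with Pik3ca and Foxo1 among them. Of 31 pathway genes 26 had probes and 24 had at least 3, and the counts and medians below include Pik3ca and Foxo1. In the 160 tumour 2 of these 24, Gsk3b and Pik3cb, were at or above 0.3, where 19.1% of all genes were. At or below -0.3 were 3 of the 24, Pik3ca and Foxo1 among them, beside 12.6% of all genes. The median of the 24 was 0.01 in the 160 tumour, beside 0.04 over all genes.

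Pik3cb, which encodes the p110beta subunit on chromosome 9, averaged -0.03, 0.15 and 0.10 in vehicle, 0.24 at 40, 0.23 at 80 and 0.44 at 160 mg/kg/day. The regulatory subunit gene Pik3r1 averaged -0.04 to 0.03 in all 6 tumours. At 40 mg/kg/day 1 of the 24 genes was at or below -0.3 (genome 8.4%), Foxo3 on chromosome 10 (-0.83). In that tumour 0 were at or above 0.3 (genome 10.5%). At 80 mg/kg/day 2 of the 24 were at or below -0.3 (genome 9.8%), and 1, Gsk3b (0.51), was at or above 0.3 (genome 12.4%). The Pik3ca and Foxo1 values of both these tumours were above 0.

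Within the 160 tumour the chromosome 3 loss was the longest of 12 called losses, which together covered 217 Mb, and made up 35.3% of that length. The next was on chromosome 19, with a mean of -0.72 over 58.2 Mb. The 12 means ran from -0.90 to -0.71, so the chromosome 3 mean was the one nearest 0. The vehicle tumours were near 0 in the chromosome 3 and chromosome 19 losses alike, whereas in the 10.8 Mb loss on chromosome 16 vehicle tumour 1 averaged -0.83. The 80 tumour averaged -0.44 over the chromosome 19 part and -0.07 over the chromosome 3 part. For the 40 tumour these means were -0.02 and -0.03.

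A few member probes stood apart by themselves. In all 6 tumours 7 of the 6564 probes lay beyond 1 in size in the same direction, 5 of them upwards. One of these, at chr3:26546988-26547047, read 3.51, 3.76 and 4.13 in vehicle, 4.29 at 40, 3.68 at 80 and 3.40 at 160 mg/kg/day. Its matched difference was -0.58, within the range of the lost part. In the 160 tumour alone, a probe named AK158622 at chr3:55960608-55960667 read -4.25, while the other 5 tumours read -0.17 to 0.27. It is 1 probe, and its neighbours were at the level of the lost part.

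The only comparison over tumours that the choice of the stretch did not use was that of the 40 and 80 tumours with the 3 vehicle tumours. In limma's test on medians of 1 Mb windows, adjusted by Benjamini-Hochberg over 2551 windows, 0 of the 87 windows of the stretch differed at an adjusted p under 0.05. Across the genome 0.314% of windows were called higher and 6.51% lower in these 2 resistant tumours; chromosome X held 107 of the 174 called windows. With background correction by normexp, 19 windows of the stretch were called higher and 2 lower, and across the genome 177 were higher and 56 lower, against 8 and 166. The smallest adjusted p in the stretch was 0.0723. An unadjusted p under 0.05 was seen in 18 of the 87 windows, beside 729 of the 2551 windows of the genome. The differences ran from -0.10 to 0.15 on the log2 scale, with a median of 0.02, beside -0.000199 over the genome. Leaving out the 40 or the 80 tumour left 1 resistant tumour, assumed to vary like the vehicle tumours. The median difference of the stretch was then 0.0025 without the 40 tumour and 0.035 without the 80 tumour. Over the genome it was -0.010 and -0.0030. With 2 tumours at different doses against 3, a count of 0 does not show that the windows were equal, and that these 5 tumours had no large loss here was already known when the test was made.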

How the data were processed

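The authors deposited scanner files written by Feature Extraction 9.5.3.1, whose headers place the probes on mm8. The processed intensity of each dye used here had its background subtracted and its dye bias corrected by that software, per the file headers. The authors' deposited value table holds log10 ratios of the same arrays and was converted to log2 for 1 alternative. From these, the log2 ratio of red over green was taken and the median of the autosomal probes of each array subtracted. Control and outlier-flagged spots were dropped, and spots of the same probe averaged. Members and gene lists were chosen with earlier results of these data known. Named genes are those of 6 lists, the 3 nearest to the border on each side, and the 3 lowest and 3 highest with at least 5 probes; Kcnmb2, AK158622 and the genes said to be named after their values were seen are additions. Names spanning 3 Mb or more were left out. Segmentation was by penalised least squares, each breakpoint costing 3 times 2 log(n) noise variances. Steps, segments and the window test were tested on simulated data. Python 3.11.15, numpy 2.4.6, pandas 2.3.3, R 4.3.3 and limma 3.58.1 were used. Some genes of the PI3K list are not reported here. The 21 RNA arrays were not analysed here, because no table used here pairs their probe sets with genes.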

Additional observations from a re-analysis of the deposited data

How the results depend on the processing

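No paired analysis was possible because no label links a resistant tumour to a vehicle tumour. The border stayed at 79629324 under every alternative fitted except 1 Mb window medians, whose step lies at the window edge 79000000. Over the whole stretch to 90000000 the mean log2 ratio was -0.0558 in vehicle, -0.0275 at 40, -0.0566 at 80 and -0.585 at 160 mg/kg/day. Ending the region at the border gave -0.0724 in vehicle, -0.0677 at 80 and -0.714 at 160 mg/kg/day. Background correction by normexp gave -0.0907 in vehicle, 0.00268 at 80 and -0.608 at 160 mg/kg/day. Centring without chromosomes 3, 6, 10 and 16 gave -0.0418 in vehicle, -0.0125 at 40, -0.0334 at 80 and -0.574 at 160 mg/kg/day. Centring on the mode gave -0.0273, 0.0422, -0.0373 and -0.543 in the same order. The number of called segments in the 160 tumour was 3 in place of 1 against 40 and 80 together, against 40 and against 80, since the interval of smaller loss and 1 single probe split it. With calls at 0.2 the other 5 tumours had 3 called segments in place of 0, all of them in vehicle tumours and inside the lost part. They were chr3:41774446-49552243 in vehicle tumour 1 (-0.20), chr3:42015992-48978546 in vehicle tumour 2 (-0.20) and chr3:41823759-48978546 in vehicle tumour 3 (-0.21).

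In the window test of the 40 and 80 tumours against vehicle, called windows of the stretch rose from 0 to 21 with normexp (19 higher and 2 lower), 1 with 2 Mb windows and 2 with window means. Leaving out 1 tumour gave 0 to 34, with 13 without the 40 tumour and 34 without the 80 tumour. Genome-wide, called windows went from 174 to 233 with normexp, and were 98 of 1298 with 2 Mb windows and 210 of 2551 with window means. Without the 40 or the 80 tumour, the share of windows called was smaller in the stretch than over the genome. Those fits left 1 resistant tumour, so nothing about the stretch is read from their counts. The interval of smaller loss had the same ends under normexp (-0.20), the value table, no outlier filter and only bright probes (-0.13 each). Its alternatives were chosen after seeing the data. The cause of these shifts was not tested. Correction for probe GC was not run, as no probe sequences were used here, and the 3 RNA comparisons were not run.

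The number of arrays limits the precision: the loss was measured in 1 tumour on 1 array, with no replicate. Positions of exons and introns, and sequence of the border, were not analysed here.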
